A study of Mus musculus with 22 samples.

Results

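The genes described here are 5 genes of the primary granule program of neutrophils, Mpo, Elane, Prtn3, Ctsg, and Ms4a3, out of 47311 genes to which transcripts in the files were assigned. They were chosen by name, and every one of them was measured in all 22 libraries and passed the filter on low counts in every comparison. RNA-seq was performed on sorted bone marrow cells of mice that all carried the floxed Arid1a allele (Arid1a f/f) and all received poly(I:C). The floxed line had been backcrossed to C57BL/6 for 5 generations before it was crossed with a Cre strain. KO mice also carried the Mx1-Cre transgene, an interferon-inducible Cre that is not restricted to blood cells and removes exon 9 of Arid1a after poly(I:C), and WT mice were sex-matched littermates without Cre. Poly(I:C) was given at an age of 8 to 14 weeks, and sorting followed after 4 weeks. LT-HSC (CD34-Flt3- LSK cells, the long-term stem cells) came from 2 WT mice (S245 and S269) and 2 KO mice (S244 and S270). The 3 myeloid precursors, common myeloid progenitors (CMP), granulocyte-macrophage progenitors (GMP), and megakaryocyte-erythroid progenitors (MEP), came together from each of 3 WT mice, labelled 300, 305 and 309, and from each of 3 KO mice, labelled 301, 304 and 308.

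Libraries held between 40804031 and 65930737 estimated counts on genes. LT-HSC and precursor libraries were prepared with different kits, the former for low input, so that population and kit cannot be told apart between them. Stem cell markers summed to 1029 to 1641 TPM in LT-HSC and to at most 116 TPM in the precursors. The WT LT-HSC library of mouse S245 stood apart, with at least 10 counts on 27191 genes against 18504 to 22407 in the other 3 LT-HSC libraries. Arid1a itself, summed over all transcripts, which does not isolate exon 9, had a mean TPM of 26.8 in WT and 10.8 in KO LT-HSC. In the precursors its means were 80.7 (WT) and 74.4 (KO) for CMP, 65.5 and 44.8 for GMP, and 52.8 and 48.2 for MEP, and only the precursors passed the test.

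Primary (azurophil) granules are packed at the promyelocyte stage, the earliest granule-forming step of neutrophil development, and transcription of their cargo begins in CMP and GMP, before granules are visible. Myeloperoxidase, encoded by Mpo, is a heme enzyme that makes hypochlorous acid from hydrogen peroxide. Elane, Prtn3 and Ctsg encode neutrophil elastase, proteinase 3 and cathepsin G, serine proteases that are made as inactive precursors, trimmed by cathepsin C and stored on the proteoglycan serglycin. Ms4a3 encodes a membrane protein of the MS4A family that is not a granule enzyme but marks the same precursors. C/EBP factors, PU.1, Myb and Runx1 are known activators of these genes.

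The promoters are shown because the 5 genes lie at 4 places in the genome and were compared for what their upstream sequence shares (GRCm38; positions by GENCODE vM21, sequences from RefSeq on GRCm38.p6). Prtn3 (ENSMUSG00000057729, chr10:79874476-79883174, plus strand) and Elane (ENSMUSG00000020125, chr10:79886247-79888215, plus strand) are neighbours, with 3072 bases between them. Mpo (ENSMUSG00000009350) is at chr11:87793581-87804413 on the plus strand, Ctsg (ENSMUSG00000040314) at chr14:56099881-56102574 on the minus strand, and Ms4a3 (ENSMUSG00000024681) at chr19:11629496-11640851 on the minus strand. Mpo is overlapped on the other strand by the antisense gene Gm11505 (12.5 TPM in WT CMP and 82.0 in WT GMP), and the first bases of the longest Prtn3 gene model overlap Plppr3. Strand was not stated for the counting, so reads of such pairs cannot be told apart. Each sequence below ends at the base before the annotated start of the main transcript or gene (Elane chr10:79886062-79886246, Prtn3 chr10:79879417-79879613, Ctsg chr14:56102575-56102824, and Ms4a3 chr19:11640852-11641101), 5′ to 3′ on the strand of the gene, and capitals mark the motif matches.
Elane: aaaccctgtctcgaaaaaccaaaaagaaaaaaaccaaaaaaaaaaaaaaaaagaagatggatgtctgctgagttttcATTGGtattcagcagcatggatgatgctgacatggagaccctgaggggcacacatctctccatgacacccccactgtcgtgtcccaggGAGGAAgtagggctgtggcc
Prtn3: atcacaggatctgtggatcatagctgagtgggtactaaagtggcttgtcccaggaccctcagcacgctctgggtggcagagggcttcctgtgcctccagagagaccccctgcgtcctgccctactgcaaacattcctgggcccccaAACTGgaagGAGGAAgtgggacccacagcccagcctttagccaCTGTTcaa
Ctsg: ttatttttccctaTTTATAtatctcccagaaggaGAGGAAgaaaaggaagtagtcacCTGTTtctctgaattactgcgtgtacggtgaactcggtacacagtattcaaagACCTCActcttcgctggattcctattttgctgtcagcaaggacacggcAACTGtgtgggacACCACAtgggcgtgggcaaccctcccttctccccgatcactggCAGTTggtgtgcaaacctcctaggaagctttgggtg
Ms4a3: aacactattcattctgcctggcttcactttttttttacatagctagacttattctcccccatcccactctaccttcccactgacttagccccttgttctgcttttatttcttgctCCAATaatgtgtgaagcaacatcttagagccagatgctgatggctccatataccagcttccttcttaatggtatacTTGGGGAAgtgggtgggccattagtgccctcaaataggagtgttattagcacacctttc

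In the 250 bases before the RefSeq start, on both strands, 7 motifs were searched, and no matches in these genes overlapped each other. The PU.1 letters GAGGAA were found in 4 of the 5 genes, 2 times in Mpo and once each in Elane, Prtn3 and Ctsg, against 23.3% of all 32851 RefSeq promoters. Myb letters AACNG were in the same 4 genes, but 74.2% of all promoters hold them. The 2 Myb matches of Elane lie outside its printed sequence, which ends 65 bases before the RefSeq start. Ms4a3 held neither the PU.1 nor the Myb letters. It was the only one of the 5 with the C/EBP letters TTNNGNAA, which 36.8% of promoters hold. Runx letters TGNGGT (40.1% of promoters) occurred 2 times in Ctsg, and TATAAA (12.4%) once in Ctsg. CCAAT (33.8%) occurred once in Elane and once in Ms4a3, and the GATA letters AGATAA (9.99%) in none of the 5. Such matches are a description of letters and not of binding. For Mpo no sequence is shown, since the main transcript starts 425 bases downstream of the RefSeq start.

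All 5 genes were highest in GMP and lowest in MEP among the 3 precursors. In WT GMP, Mpo had 16565 ± 1076 TPM (SD, n = 3), Elane 7024 ± 895, Prtn3 5302 ± 493, Ctsg 3862 ± 404, and Ms4a3 1151 ± 161. TPM, the transcript abundance scaled to the library, allows for transcript length, so genes can be compared within a library. By gene totals this order, Mpo above Elane, Prtn3, Ctsg and Ms4a3, was that of every GMP library. No total of one gene overlapped that of the next within WT GMP. Coding transcripts alone placed Prtn3 below Ctsg in GMP of WT mice 300 and 309, as given below. Mpo ranked 1 or 2 among all genes in every WT GMP library, Elane between 6 and 9, Prtn3 between 10 and 14, Ctsg between 16 and 24, and Ms4a3 between 124 and 144. Together the 5 genes made up 3.10 to 3.65% of all TPM in WT GMP.

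In WT CMP the order was different. Mpo was again the highest at 2757 ± 278 TPM (SD, n = 3), but Prtn3 (838 ± 127) and Ctsg (623 ± 41.1) stood above Elane (187 ± 14.1), and Ms4a3 was at 43.0 ± 3.29. Neighbours in that order of gene totals did not overlap between libraries. Coding Prtn3 transcripts alone lay below Ctsg in each WT CMP library, as given below. Elane was 14.2 to 15.1 times below Mpo in WT CMP and 2.18 to 2.47 times below it in WT GMP, so the elastase gene gained on the peroxidase gene between the stages. The 5 genes made up 0.394 to 0.480% of all TPM in WT CMP and 0.0026 to 0.0060% in WT MEP.

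In WT MEP, Mpo was at 18.3 ± 7.88 TPM (SD, n = 3), Prtn3 at 12.8 ± 4.41, Elane at 8.38 ± 2.67, Ctsg at 3.88 ± 1.54, and Ms4a3 at 1.46 ± 0.677. Mpo overlapped Prtn3 across these libraries, and Prtn3 overlapped Elane. The MEP values rest on few reads for the lower genes, with 21.1 to 76.1 estimated counts on Ms4a3 across the MEP libraries. MEP of WT mouse 305 had the lowest value of all 5 genes in WT.

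**Figure D1:**
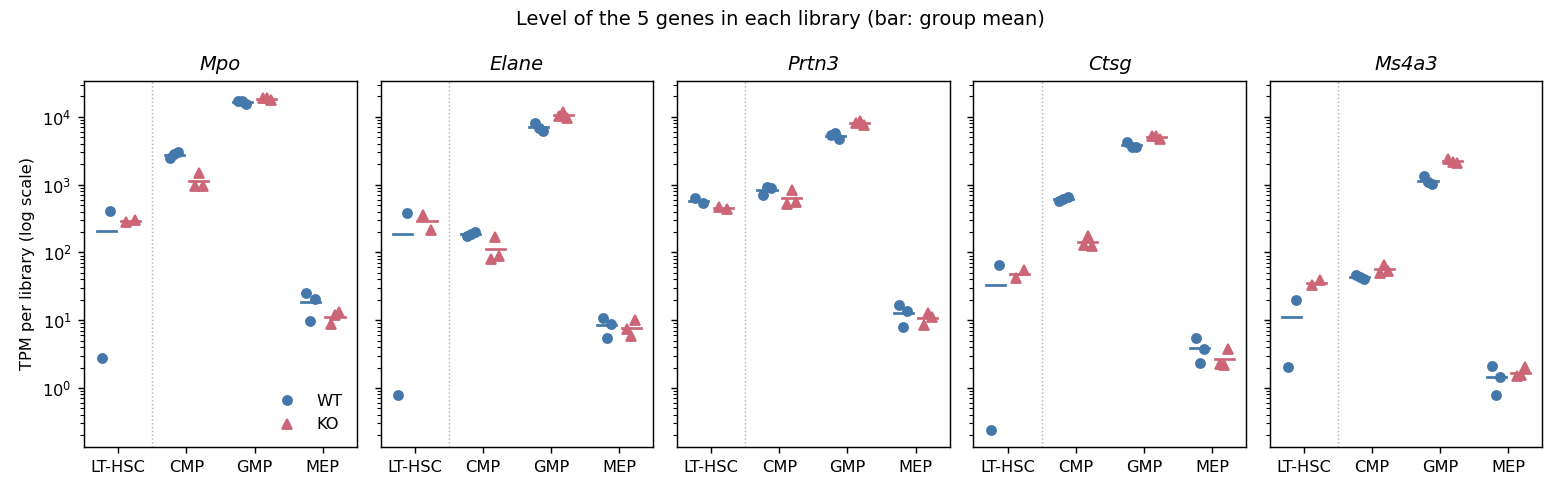
TPM of each gene on a log axis (y) in each library by population (x), with WT as circles, KO as triangles and the group mean as a bar; the dotted line separates LT-HSC, which were made with another kit. Each gene is highest in GMP and lowest in MEP among the precursors, and 1 WT LT-HSC library lies far below the other 3 for every gene but Prtn3.

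The populations of the WT mice were then compared in 1 fit of the 18 precursor libraries, with mouse as a block (edgeR quasi-likelihood test, Benjamini-Hochberg adjusted over all 19171 genes tested, FDR 0.1). From CMP to GMP all 5 genes rose, against 23.2% of all genes tested. Elane rose most, by 5.42 ± 0.27 (log2 fold change ± SE, adjusted p = 3.35e-09), a 42.7-fold difference, and Ms4a3 rose by 4.93 ± 0.15 (adjusted p = 4.42e-11). Prtn3 rose by 3.06 ± 0.19, Ctsg by 2.82 ± 0.19 and Mpo by 2.76 ± 0.25 on the log2 scale (adjusted p of 2.53e-08, 4.41e-08 and 1.21e-06). All 5 were lower in MEP than in CMP, against 37.5% of all genes, with log2 fold changes of -7.04 for Mpo, -7.03 for Ctsg, -5.70 for Prtn3, -4.59 for Ms4a3 and -4.19 for Elane. All 5 were higher in GMP than in MEP, against 37.0% of all genes, by 8.76 (Prtn3) to 9.85 (Ctsg) on the log2 scale. These comparisons share the same WT libraries. In bulk RNA, fewer cells of a type and less RNA per cell cannot be told apart.

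The effect of Arid1a loss was first examined in CMP, where the peroxidase and 2 of the 3 proteases were lower in KO than in WT. Ctsg, at 582, 621 and 664 TPM in WT mice 300, 305 and 309, was at 130, 173 and 124 TPM in KO mice 301, 304 and 308. The groups lie far apart, and Ctsg fell by 2.23 ± 0.13 on the log2 scale (SE, edgeR adjusted p = 3.74e-05), that is 4.69-fold. Mpo was at 2449, 2831 and 2990 TPM in WT and 966, 1482 and 958 in KO CMP. No KO value reached the lowest WT value, and Mpo fell by 1.38 ± 0.17 (adjusted p = 0.000837). Elane was at 173, 188 and 201 TPM in WT and 79.8, 167 and 88.3 in KO CMP. KO mouse 304 came close to the WT range, and Elane fell by 0.84 ± 0.25 (adjusted p = 0.0483).

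Prtn3 and Ms4a3 did not pass the test in CMP. Prtn3 was at 692, 920 and 902 TPM in WT and 523, 823 and 557 in KO, with KO mouse 304 inside the WT range (log2 fold change -0.46 ± 0.19, adjusted p = 0.138). Ms4a3 was at 46.4, 42.7 and 39.8 TPM in WT and 49.4, 65.8 and 53.3 in KO, so that each KO value lay above each WT value (0.30 ± 0.11, adjusted p = 0.113). In all, 3 of the 5 genes were lower in KO CMP, against 12.8% of 17214 genes tested (10.6% were higher). KO mouse 304 had the highest KO value of all 5 genes. Without it Elane was at -1.26 and Prtn3 at -0.71 (adjusted p = 0.0101), while Elane no longer passed without WT mouse 305, WT mouse 309, KO mouse 301 or KO mouse 308 (adjusted p of 0.102, 0.140, 0.147 and 0.139) or with DESeq2 (adjusted p = 0.1). DESeq2 called Ms4a3 in its place (0.31 ± 0.12, adjusted p = 0.0555). Without a filter on low counts, Prtn3 (adjusted p = 0.051) and Ms4a3 (adjusted p = 0.0751) passed, as did Prtn3 without WT mouse 300 (adjusted p = 0.0658) and Ms4a3 without KO mouse 301 (adjusted p = 0.0711). With the pairs of WT and KO mice taken from the column order of the study's tables as a block, Prtn3 (-0.48 ± 0.09, adjusted p = 0.00527) and Ms4a3 (0.29 ± 0.10, adjusted p = 0.0654) passed too.

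Markers other than the 5 genes also moved in the same CMP libraries. Granulocyte and monocyte precursor markers, the 5 genes left out, summed to 242 to 441 TPM in WT and 156 to 197 in KO (6 genes). All 7 erythroblast markers were higher in KO CMP, and their summed level was 112 to 196 TPM in WT and 746 to 1015 in KO. Erythroid and megakaryocyte precursor markers overlapped, at 1998 to 2321 TPM summed in WT and 2022 to 2338 in KO (5 higher and 3 lower of 9). Of 7 basophil and mast cell markers tested, 6 were lower (373 to 582 TPM summed in WT, with all KO libraries lower and the lowest at 263). Of 8 mature neutrophil markers, 5 were lower (75.4 to 321 TPM summed in WT, with mouse 300 the highest, and 46.5 to 77.9 in KO). Of 8 monocyte markers, 3 were lower and 1 higher (388 to 769 TPM summed in WT and 254 to 321 in KO). Dendritic cell markers summed to 188 to 269.4 TPM in WT and 282 to 348 in KO (1 higher and 2 lower of 6 tested), and T and NK cell markers to 169 to 243.7 and 128 to 146 (3 of 4 tested lower). No marker of these lists was at 0 in every CMP library. Of 6 genes of the sort gates, 1 was lower and 1 higher in KO CMP, and their summed levels overlapped (689 to 774 TPM in WT and 723 to 862 in KO). Fcgr3, which encodes one of the receptors of the antibody that separates CMP from GMP, fell from a mean of 11.5 to 5.19 TPM (log2 fold change -1.24, adjusted p = 0.00225), and Flt3 rose from 78.4 to 161 TPM (0.94, adjusted p = 0.00285). Flt3 is also on the dendritic cell list, where it was the 1 gene higher in KO CMP, and its rise counts in that sum. The part of these cells in the granule gene values was not tested.

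In GMP the direction was the opposite of that of the 3 genes called in CMP. All 5 genes were higher in KO GMP, against 17.5% of 16383 genes tested (16.3% were lower). Ms4a3 was at 1333, 1096 and 1024 TPM in WT and 2371, 2177 and 2083 in KO GMP. The groups were well separated, and Ms4a3 rose by 1.09 ± 0.10 (log2 fold change ± SE, edgeR adjusted p = 6.00e-05), a 2.13-fold difference. Prtn3 was at 5419, 5726 and 4761 TPM in WT and 8132, 8641 and 7509 in KO, and rose by 0.82 ± 0.10 (adjusted p = 0.000352). Elane, at 7997, 6838 and 6237 TPM in WT and 10416, 11747 and 9640 in KO, rose by 0.75 ± 0.12 (adjusted p = 0.00168).

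Ctsg and Mpo rose less in GMP. Ctsg was at 4328, 3648 and 3609 TPM in WT and 5304, 5159 and 4676 in KO, and rose by 0.54 ± 0.09 (adjusted p = 0.00267). Mpo was at 17430, 16904 and 15360 TPM in WT and 19221, 18886 and 17477 in KO GMP. The lowest KO value was just above the highest WT value, and Mpo rose by 0.32 ± 0.11 (adjusted p = 0.0525). This call was lost without WT mouse 305, WT mouse 309 or KO mouse 301 (adjusted p of 0.131, 0.191 and 0.140) and in a fit of all 18 precursor libraries (adjusted p = 0.370). The fits scale counts by TMM, and on the TPM scale the log2 ratio of KO to WT means in GMP was smaller, at 0.16 for Mpo, 0.39 for Ctsg, 0.59 for Elane, 0.61 for Prtn3 and 0.94 for Ms4a3.

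Elane took the place of the third most abundant gene in every KO GMP library, Prtn3 ranked between 4 and 9, Ctsg between 9 and 15, and Ms4a3 between 42 and 51. The 5 genes made up 4.14 to 4.66% of all TPM in KO GMP. Eosinophil markers were lower in the same libraries, 6 of 6 (4211 to 9632 TPM summed in WT and 1181 to 2346 in KO), as were 6 of 7 basophil and mast cell markers tested (1065 to 1560 and 334 to 403). Granulocyte and monocyte precursor markers, the 5 genes left out, overlapped in GMP, at 647 to 720.5 TPM summed in WT and 615 to 709 in KO. The overlap of sums hides calls in opposite directions. With the 5 genes counted, 7 of 11 markers on this list were higher and 3 lower. Of 8 monocyte markers, 2 were higher and 4 lower in KO GMP (1464 to 1760 and 953 to 1201 TPM summed). Of 8 mature neutrophil markers, 3 were higher and 3 lower (164 to 367 TPM summed in WT and 318 to 1211 in KO, with mouse 304 the highest). Erythroid and megakaryocyte precursor markers summed to 156 to 278.5 TPM in WT and 105 to 124 in KO (5 of 9 lower), and dendritic cell markers to 124.5 to 156 and 96.2 to 112 (2 of 5 tested lower). T and NK cell markers summed to 646 to 861 TPM in WT and 946 to 1107 in KO, of which Nkg7, also on the promyelocyte list, made up a mean of 731 and 1013 TPM, while Cd4 was lower. Of 6 genes of the sort gates, 2 were lower in KO GMP, Cd34 (log2 fold change -0.47, adjusted p = 0.0189) and Ly6a (-1.35, adjusted p = 0.0297), and Fcgr2b was higher (0.47, adjusted p = 0.00152). No marker of these lists was at 0 in every GMP library, and their part in the granule gene values was not tested.

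**Figure D2:**
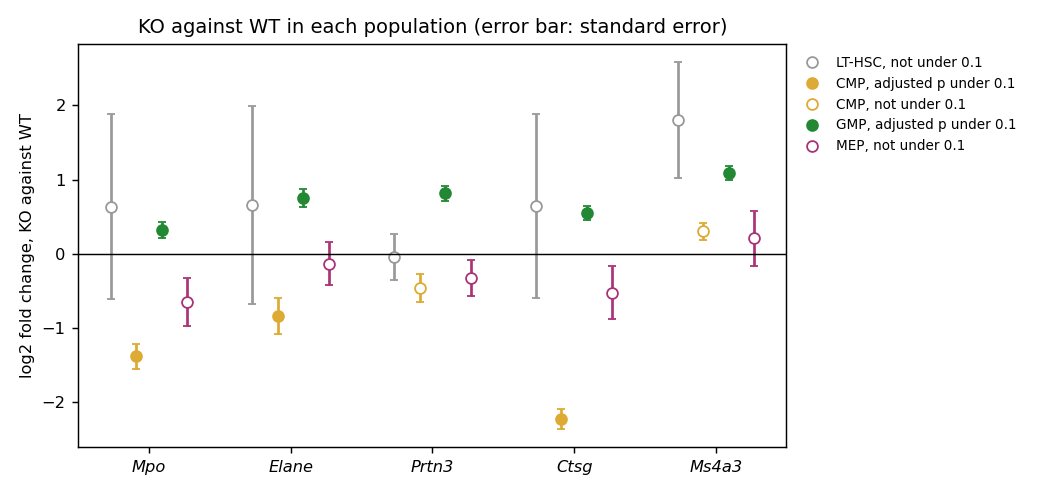
Log2 fold change of KO against WT (y) for each gene (x) in the 4 populations, with the standard error as error bar; filled points passed an adjusted p of 0.1. In CMP 3 genes lie below 0 and passed, from -2.23 for Ctsg to -0.84 for Elane, while in GMP all 5 lie above 0, from 0.32 for Mpo to 1.09 for Ms4a3.

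The KO effect in GMP was tested against that in CMP as the interaction of genotype and population. All 5 genes passed with a more positive effect in GMP, against 8.90% of 19171 genes (10.8% had a more negative effect). The difference was greatest for Ctsg, at 2.76 ± 0.25 (log2, SE, adjusted p = 1.30e-05). For Mpo it was 1.71 ± 0.34, for Elane 1.62 ± 0.32, for Prtn3 1.28 ± 0.25, and for Ms4a3 0.78 ± 0.18 (adjusted p of 0.00370, 0.00372, 0.00322 and 0.00891). The 5 genes passed with each mouse left out in turn. With DESeq2 the genes with a more positive effect were 2153 and those with a more negative effect 1707 of all genes, against 1706 and 2073 here, and the 5 genes passed there too.

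Within single mice, the ratio of GMP to CMP level shows the same step. For Mpo it was 5.14 to 7.12 in WT mice and 12.8 to 19.9 in KO mice, and for Ctsg 5.43 to 7.43 in WT and 29.9 to 40.8 in KO. No KO mouse overlapped a WT mouse for any of the 5 genes. The ratio was 31.1 to 46.4 in WT and 70.5 to 131 in KO mice for Elane, 5.28 to 7.83 and 10.5 to 15.6 for Prtn3, and 25.7 to 28.7 and 33.1 to 48.0 for Ms4a3.

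**Figure D3:**
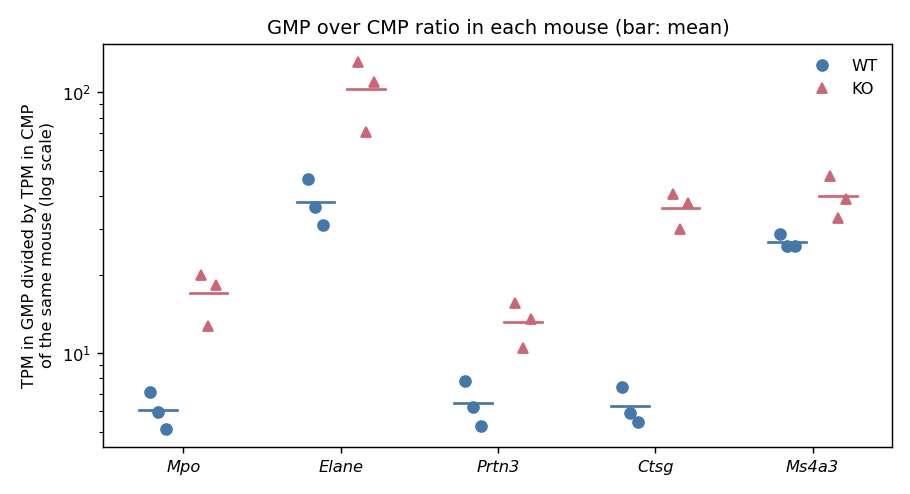
TPM in GMP divided by TPM in CMP of the same mouse (y, log axis) for each gene (x), with 3 WT mice as circles, 3 KO mice as triangles and the mean as a bar. Every KO mouse lies above every WT mouse for each gene, with the widest gap for Ctsg.

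The unequal changes altered the make-up of the granule transcripts. In CMP, Ctsg contributed 13.5 to 14.8% of the summed TPM of the 5 genes in WT and 6.37 to 7.44% in KO, while Prtn3 contributed 17.6 to 20.0% in WT and 29.9 to 31.3% in KO. Mpo's share was 61.5 to 62.3% in WT CMP and 53.8 to 55.3% in KO CMP, and in GMP it was 47.7 to 49.6% in WT and 40.5 to 42.3% in KO. Elane's share in GMP was 20.0 to 21.9% in WT and 22.9 to 25.2% in KO. Ctsg kept about the same share of the sum in GMP, 10.7 to 11.9% in WT and 11.1 to 11.7% in KO. The level of Ctsg relative to Ms4a3 was 12.6 to 16.7 in WT CMP and 2.32 to 2.63 in KO CMP.

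**Figure D4:**
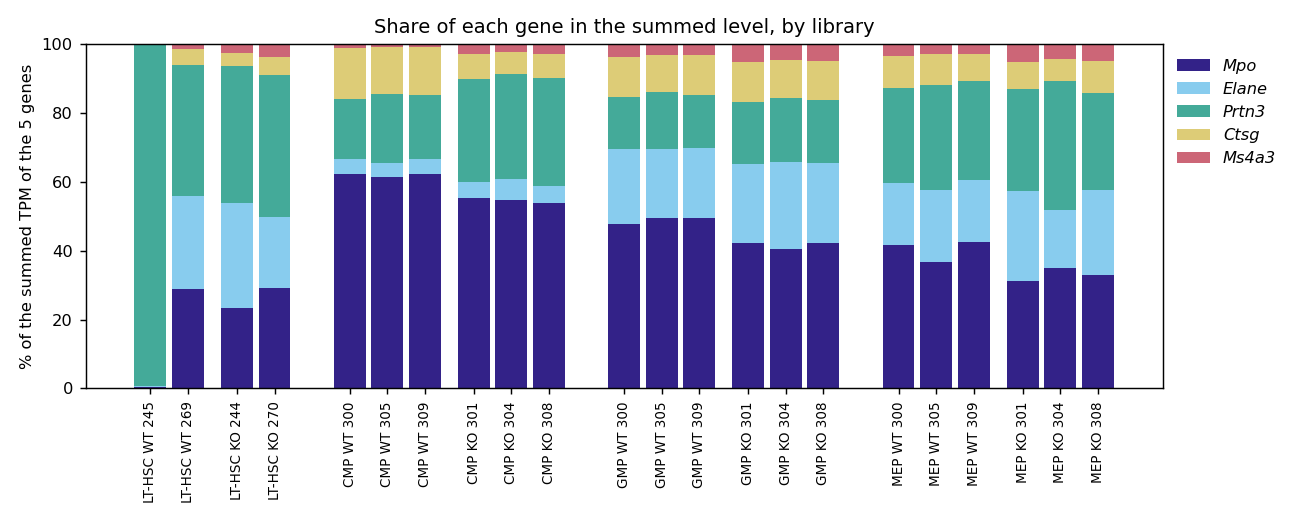
Share of each gene (y, % of the summed TPM of the 5 genes) in each of the 22 libraries (x, by population, genotype and mouse). Within CMP and GMP the libraries of a genotype are alike, with a smaller Mpo share in KO, and the WT LT-HSC library of mouse S245 consists almost wholly of Prtn3.

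In MEP no call was made for any of the 5 genes. With edgeR 0 of 5 passed, against 29.4% of 15777 genes in either direction, 0 had an unadjusted p under 0.05, and 0 passed with DESeq2. Mpo was at 24.9, 9.60 and 20.5 TPM in WT and 8.86, 11.9 and 13.2 in KO (log2 fold change -0.66 ± 0.32, adjusted p = 0.195), and the groups overlapped. Without WT mouse 305, the lowest WT library, Mpo was at -0.98 (adjusted p = 0.00469) and Prtn3 at -0.55 (adjusted p = 0.0538), and both passed. Elane was at 10.8, 5.54 and 8.76 TPM in WT and 7.44, 5.75 and 9.91 in KO, and Prtn3 at 16.6, 7.96 and 13.9 in WT and 8.43, 12.7 and 11.2 in KO. Their log2 fold changes were -0.14 ± 0.29 and -0.33 ± 0.24. Ctsg had 5.45, 2.37 and 3.81 TPM in WT and 2.26, 2.14 and 3.75 in KO, and Ms4a3 2.13, 0.780 and 1.46 in WT and 1.5, 1.53 and 2.01 in KO. Their WT and KO ranges overlapped, and neither passed (-0.53 ± 0.35 and 0.21 ± 0.37). In the same libraries 6 of 7 erythroblast markers were higher in KO (283 to 644 TPM summed in WT and 817 to 1285 in KO). Erythroid and megakaryocyte precursor markers summed to 6583 to 7739 TPM in WT and 4744 to 5325 in KO (4 higher and 1 lower of 9). Mature neutrophil markers summed to 30.5 to 106 TPM in WT, with mouse 300 the highest, and 12.1 to 27.6 in KO. Basophil and mast cell markers summed to 63.9 to 80.1 TPM in WT and 16.5 to 22.3 in KO (4 of 6 tested lower). The only marker of these lists at 0 in every MEP library was Mcpt4, and their part was not tested.

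Against CMP, the KO effect in MEP differed for Ctsg alone, which was more positive in MEP by 1.71 ± 0.34 (log2, SE, edgeR adjusted p = 0.00539), against 5.32% of all genes. Against MEP, the effect in GMP was more positive for 4 of the 5 genes, against 12.1% of all genes (with DESeq2, 2879 genes were more positive and 2020 more negative, against 2316 and 2458 here). The difference was 1.14 ± 0.29 for Prtn3, 1.05 ± 0.33 for Ctsg, 0.92 ± 0.35 for Mpo and 0.88 ± 0.29 for Ms4a3. Elane did not pass (0.85 ± 0.37, adjusted p = 0.142). These calls depended on single mice. The number of genes that passed was 1 without mouse 300, 301 or 309, 2 without mouse 304, and 5 without mouse 305 or 308.

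In LT-HSC the values of the 2 WT mice were far apart. Mpo was at 2.78 TPM in WT mouse S245 and 407 in WT mouse S269, and at 276 and 304 TPM in KO mice S244 and S270. Elane was at 0.800 and 378 TPM in WT and 361 and 216 in KO, and Ctsg at 0.237 and 65.8 in WT and 42.3 and 54.9 in KO. Ms4a3 was at 2.01 and 20.0 TPM in WT and 32.6 and 39.2 in KO. Library S245 was thus the lowest of all for these 4 genes, with 6 estimated counts on Ctsg and 18 on Elane. Prtn3 did not share that gap, with 632 and 534 TPM in WT and 471 and 430 in KO.

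With edgeR, 0 of the 5 genes passed between KO and WT LT-HSC, against 0.0792% of 22733 genes in either direction. Of the 5, 1 had an unadjusted p under 0.05 (Ms4a3, log2 fold change 1.80 ± 0.78, adjusted p = 0.876), and 0 passed with DESeq2. Without library S245, Mpo was at -0.34, Elane at -0.32 and Ctsg at -0.34. Without library S269, which leaves S245 as the only WT library, Mpo was at 7.33, Elane at 8.81, Ctsg at 8.0 and Ms4a3 at 4.29. In both cases the lone WT library is assumed to vary like the KO libraries, so only effect sizes are given. The summed level of mature neutrophil markers was 461 TPM in library S245, 2565 in library S269, and 398 and 371 in KO, and that of erythroblast markers 1190 to 4155 TPM over the 4 libraries. Eosinophil markers summed to 3788 TPM in KO mouse S270 and to 53.1 to 269.3 in the other 3. No marker of these lists was at 0 in all 4, and their part was not tested. Side by side with the precursors, and apart from library S245, LT-HSC had 276 to 407 TPM of Mpo, below all CMP libraries, and 216 to 378 TPM of Elane, above all CMP libraries.

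The files give single transcripts, and for Prtn3 these differed between populations. The full-length coding transcript of Prtn3 (ENSMUST00000006679) took 75.9 to 78.5% of the gene's estimated counts in WT GMP, 42.6 to 48.5% in WT CMP, and 6.03 to 29.3% in WT LT-HSC. Most of the rest was assigned to a transcript annotated with a retained intron (ENSMUST00000165982), at 14.1 to 16% in WT GMP, 40.2 to 44.9% in WT CMP, and 54.8 to 73.2% in WT LT-HSC. The gene total thus understates the step from CMP to GMP for the coding transcripts, which was 3.79 ± 0.21 on the log2 scale against 3.06 for the total.

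In KO the share of that full-length transcript was larger, at 81.4 to 83.4% in GMP and 49.5 to 55.8% in CMP, and neither range overlapped that of WT. Summed over coding transcripts, Prtn3 was at 243.9, 364 and 335 TPM in WT CMP and 214, 380 and 224 in KO CMP (log2 fold change -0.29 ± 0.24, adjusted p = 0.496). In GMP the same sum was at 3792, 3993 and 3149 TPM in WT and 6237, 6324 and 5577 in KO (0.90 ± 0.10, adjusted p = 0.000235). LT-HSC of mouse S245 had 36.7 TPM of coding Prtn3 against 94.9 to 117 in the other 3 libraries, so its high total rested on non-coding transcripts. In WT, coding Prtn3 was below Ctsg in every CMP library (Ctsg at 582, 621 and 664 TPM). In WT GMP it was below Ctsg in mice 300 and 309 and above it in mouse 305 (Ctsg at 4328, 3609 and 3648 TPM in these mice). These sums were chosen after the data were seen.

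Mpo is read mainly from 2 transcripts with coding parts of the same length (2154 bases) and different starts. The one that starts downstream, ENSMUST00000121303, took 85 to 87.1% of the gene's estimated counts in WT GMP and 88.4 to 89.2% in KO GMP. The upstream one, ENSMUST00000020779, took 22.7 to 25.3% in WT CMP, 10.2 to 11.5% in WT GMP and 7.78 to 8.59% in KO GMP. The upstream share was thus lower in GMP than in CMP, and lower again in KO GMP, with no overlap between these groups. Shares of transcripts are kallisto's split of shared fragments and were not tested.

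Genes that act with the 5 were followed in lists by role. Over all genes tested, 10.6% rose and 12.8% fell in KO CMP, and 17.5% rose and 16.3% fell in KO GMP. From WT CMP to WT GMP, 23.2% rose and 21.4% fell. The KO effect was more positive in GMP than in CMP for 8.90% and more negative for 10.8%. The list counts below were not tested against these shares. The other granule proteases and peroxidases tested were 4 (Prss57, Lyz2, Epx and Lpo). In KO CMP, 3 of them fell, Lpo by 1.90 ± 0.40, Prss57, a serine protease gene near Prtn3, by 0.63 ± 0.11, and Lyz2, the lysozyme gene, by 0.30 ± 0.08 on the log2 scale, with a list median of -0.47 against -0.003 for all genes tested. Lpo was barely detected in CMP, at a mean of 0.306 TPM in WT and 0.083 in KO. In KO GMP, Lyz2 (0.94 ± 0.11) and Prss57 (0.68 ± 0.11) rose, and Epx, the peroxidase of eosinophils, fell by 1.76 ± 0.38. Of the 4, 3 were higher in WT GMP than in WT CMP. The effect in GMP was more positive than in CMP for Lpo, Prss57 and Lyz2 and more negative for Epx.

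Of 7 genes tested for processing, storage and inhibition of the proteases, 3 fell and 1 rose in KO CMP. Lgmn, a lysosomal protease gene, rose by 2.56 ± 0.35, whereas Slpi, a secreted inhibitor of elastase and cathepsin G, fell by 1.93 ± 0.24, Cst7 by 1.04 ± 0.23, and Ctsc, the activating protease, by 0.25 ± 0.09. In KO GMP, 4 of the 7 rose, Lgmn by 1.91 ± 0.45, Serpinb1a, an inhibitor of the 3 serine proteases, by 1.06 ± 0.12, Srgn, the serglycin core protein, by 0.97 ± 0.13, and Slpi by 0.89 ± 0.11 (list median 0.89, all genes -0.006). The largest difference between the KO effects in GMP and CMP was that of Slpi, at 2.77 ± 0.25. From WT CMP to WT GMP, 5 rose and 2 fell, against 21.4% of all genes lower in GMP.

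Chaperones that fold the myeloperoxidase precursor moved less. All 7 rose from WT CMP to WT GMP, Calr, which encodes calreticulin, by 1.68 ± 0.08, with a list median of 1.33 against 0.02 for all genes. In KO CMP, 3 of 7 fell (Hsp90b1 by 0.28 ± 0.09, Calr by 0.27 ± 0.08 and Pdia6 by 0.25 ± 0.08), and in KO GMP, 3 of 7 rose (Pdia3 by 0.30 ± 0.07, Hspa5 by 0.28 ± 0.09 and Pdia6 by 0.22 ± 0.07). The difference between the effects passed for 6 of 7, with a median of 0.35.

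Among 17 lysosomal enzymes and membrane proteins that primary granules also hold, 15 rose and 1 fell from WT CMP to WT GMP. In KO CMP, 5 fell, Cd63, a tetraspanin of the granule membrane, by 2.33 ± 0.14 and Arsb, a lysosomal sulfatase gene, by 0.39 ± 0.11. In KO GMP, 10 rose and 1 fell, Lyst, whose loss gives giant granules, rising by 0.99 ± 0.23, while Cd63 fell by 1.02 ± 0.10. Cd63 also fell in KO MEP, by 3.57 ± 0.35, so that it was lower in KO in all 3 precursors. The list median was -0.14 in CMP and 0.20 in GMP.

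Of 13 transcription factors known at these promoters or from this lineage, 6 fell and 1 rose in KO CMP. Irf8, a factor of monocyte fate, fell by 1.45 ± 0.28, Cebpb by 1.28 ± 0.26, Gfi1, a repressor needed for neutrophils, by 0.99 ± 0.12, and Cebpa, the main C/EBP factor of GMP formation, by 0.88 ± 0.11. In KO GMP, 5 rose and 5 fell. Cebpd rose by 1.21 ± 0.12 and Gfi1 by 0.92 ± 0.12, while Gata2 fell by 1.70 ± 0.10 and Irf8 by 1.37 ± 0.26. Among the other activators named earlier, Cebpa and Runx1 fell in KO GMP (by 0.405 ± 0.06 and 0.645 ± 0.06). Spi1, the PU.1 gene, Cebpe and Cebpb rose there (by 0.60 ± 0.07, 0.56 ± 0.09 and 0.275 ± 0.11), and Myb was not called. The difference between the effects was greatest for Gfi1 (1.87 ± 0.14). In WT, 7 rose and 4 fell from CMP to GMP, led by Cebpe, a factor of granule gene transcription in later neutrophil precursors, at 5.62 ± 0.19.

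Other genes of promyelocytes and neutrophil precursors numbered 16, of which 14 were higher in WT GMP than in WT CMP. In KO CMP, 10 fell and 3 rose (median -0.56), with the largest falls in Ly6c2 (2.86 ± 0.24), Clec12a (1.74 ± 0.21), Trem3 (1.68 ± 0.29) and Anxa3 (1.44 ± 0.18). In KO GMP, 11 rose and 2 fell (median 0.62). Fcnb, which encodes ficolin B, rose by 5.15 ± 0.28, from a mean of 16.7 to 518 TPM, Hp, the haptoglobin gene, by 2.32 ± 0.12, and the glutathione transferase genes Mgst2 and Mgst1 by 1.45 ± 0.21 and 1.14 ± 0.09. The effect in GMP was more positive than in CMP for 12 of 16, with a median of 1.44 against -0.05 for all genes.

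Later granule genes, of the secondary and tertiary granules and the mature neutrophil, are a separate stage, and 13 were tested. In KO CMP, 8 fell and 1 rose (median -1.62), led by Ltf, the lactoferrin gene (-2.44 ± 0.48), and Cd177 (-2.33 ± 0.47). In KO GMP, 7 rose and 3 fell (median 1.17), with Itgam, the CD11b gene, at 2.96 ± 0.16, Lcn2 at 2.66 ± 0.27, Camp at 2.36 ± 0.76, and Retnlg at -2.38 ± 0.27. These genes overlap with the mature neutrophil markers, whose summed level was highest in WT mouse 300 in CMP and in KO mouse 304 in GMP. The KO effect was more positive in GMP than in CMP for 9 of the 13.

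**Figure D5:**
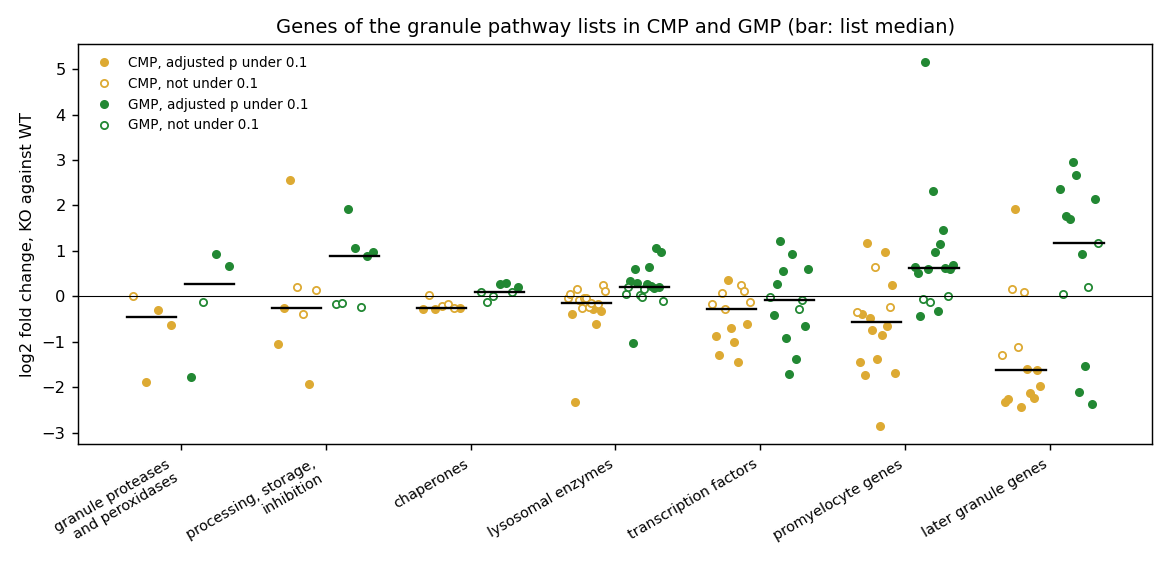
Log2 fold change of KO against WT (y) of each gene of 7 lists (x) in CMP and in GMP; filled points passed an adjusted p of 0.1, and black bars are list medians. The promyelocyte list has its median at -0.56 in CMP and 0.62 in GMP, and the later granule list at -1.62 and 1.17.

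In KO MEP, 2202 of 15777 genes were higher and 2436 lower. The proteases and peroxidases had 1 lower of 3 tested (Prss57, -1.19 ± 0.44), the processing list 4 lower and 1 higher of 7, the promyelocyte list 3 lower of 15, and the later granule list 3 lower of 13. Prss57 was low in MEP, at a mean of 1.47 TPM in WT and 0.777 in KO (edgeR adjusted p = 0.0948). The chaperone list had 2 higher and 1 lower of 7, the lysosomal list 2 higher and 7 lower of 17, and the transcription factor list 1 higher and 2 lower of 11.

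Genes beside the 5 loci were also followed. On chromosome 10, 6 of 8 listed neighbours of Prtn3 and Elane rose in KO GMP and none fell, with Kiss1r at 1.42 ± 0.24, Cfd, the complement factor D gene 2638 bases from Elane, at 0.82 ± 0.25, and Arid3a at 0.72 ± 0.09. In KO CMP, 3 of 7 there fell (Prss57, Arid3a by 0.42 ± 0.09 and Palm by 0.36 ± 0.08) and Kiss1r rose by 0.73 ± 0.25. Kiss1r was barely detected, with mean TPM of 0.395 (WT) and 0.960 (KO) in GMP and 0.492 and 0.873 in CMP. Of all protein-coding genes within 200 kb of Elane, Prtn3 among them, 13 rose and 0 fell of 26 tested in KO GMP, where 17.5% and 16.3% of all genes did. In KO CMP, 3 rose and 6 fell of 25, where 10.6% and 12.8% of all genes did. In KO MEP, 2 rose and 10 fell of 25, where 29.4% of all genes changed in either direction.

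Near Mpo on chromosome 11, Rnf43 rose in both KO CMP (1.14 ± 0.17) and KO GMP (0.93 ± 0.15), while Lpo, 2015 bases away, fell in KO CMP as given above and was at -0.11 ± 0.15 in KO GMP. Of the 7 tested from the list of Mpo's neighbours, 1 rose and 2 fell in KO CMP, and 3 rose and 2 fell in KO GMP. Of all 8 coding genes tested within 200 kb, 1 rose and 3 fell in KO CMP, and 3 rose and 3 fell in KO GMP. Near Ctsg on chromosome 14, Mcpt8, a basophil protease gene, fell by 2.45 ± 0.17 in KO CMP and by 2.49 ± 0.20 in KO GMP, so that it moved against Ctsg in GMP. Of 3 coding genes tested within 200 kb of Ctsg, 1 fell in KO CMP and 2 fell in KO GMP. The list for this locus, which also holds genes farther away, had 2 lower of 7 tested in KO CMP, and 3 lower and 1 higher in KO GMP. Near Ms4a3 on chromosome 19, Ms4a2, a basophil and mast cell receptor gene 5777 bases away, fell in both (by 1.01 ± 0.26 and 1.48 ± 0.16), and Oosp1 rose by 3.67 ± 0.22 and Ms4a6d by 2.13 ± 0.25 in KO GMP. Of coding genes within 200 kb of Ms4a3, 2 rose and 2 fell of 9 tested in KO CMP, and 6 rose and 3 fell of 10 in KO GMP. The list for this locus, which also holds genes farther away, had 2 higher and 2 lower of 11 tested in KO CMP, and 5 higher and 2 lower in KO GMP. Over all genes tested, 10.6% rose and 12.8% fell in KO CMP, and 17.5% rose and 16.3% fell in KO GMP. The neighbours near these 3 loci are few, and their counts were not tested against those shares.

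The genes most like the 5 were sought by the Pearson correlation of log2(TPM + 1) with their mean standardized level over the 18 precursor libraries, among 13761 genes. These correlations are descriptions over libraries that share populations and mice. The closest were Sun2, Tfec, Cers6, Anxa3 and Tmem50b (r of 0.996 to 0.997), followed by Slc31a2, Bace1, Gadd45b, Mapkapk3 and Slc36a1 (r of 0.995 to 0.996). Each population's mean, WT and KO together, was then subtracted, which leaves differences among mice of 1 population, including those between WT and KO. The closest were then Igsf6 (r = 0.910), Arl11 (0.890), Prss57 (0.888), Gfi1 (0.875) and Trem3 (0.867), followed by Rab32, Ckap4, Gpr157, Sema6b and Slpi (0.844 to 0.856). In Igsf6 the mean level was 18.7 TPM in WT CMP and 7.65 in KO CMP, and 170 in WT GMP and 302 in KO GMP.

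Among the 5 themselves, pairs correlated with r of 0.951 to 0.997 over the 18 libraries. With population means subtracted, which keeps the differences between WT and KO, Mpo and Ctsg stayed close (r = 0.921). Elane was near Prtn3 (0.824), Ctsg (0.817) and Mpo (0.811). Ms4a3 departed from Mpo (0.041) and Ctsg (-0.021), and was closest to Prtn3 (0.560).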

How the data were processed

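RNA-seq of 22 libraries was quantified by the authors with kallisto against mouse transcripts (paired-end reads of 100 bases), and the labels name mm10 and DESeq2. The deposited files hold, per library, kallisto's estimated count of each transcript, with shared fragments divided among transcripts. The deposited TPM values were scaled by kallisto for effective transcript length, and the effective lengths are its estimates for each library. Of 115088 transcripts, 114200 (99.2%) were paired with GENCODE vM21 genes, and the unpaired ones held 0.233 to 0.363% of counts. TPM and estimated counts were summed per gene, and counts were rounded. KO and WT were tested in each population apart, and populations and interactions in 1 fit of the 18 precursor libraries with mouse as a block, because each mouse gave all 3 precursors. All used edgeR 4.0.16 in R 4.3.3 (TMM, filterByExpr, quasi-likelihood test, Benjamini-Hochberg over all genes tested, FDR 0.1), tested on simulated data. Replicates were separate mice. Totals had a median of 52785379 counts.

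The 5 genes were given by name. Other genes named are the 2 to 4 with the largest change in each list, in the comparison described, genes of 4 lists around the loci (2 of these lists reach beyond 200 kb) and neighbours within 200 kb, the 10 closest by pattern of each kind (mean of at least 1 TPM), and Arid1a; Palm, Ctsc, Lyz2 and other list members given beyond 4, Fcgr3, Flt3, Cd34, Ly6a, Fcgr2b, Nkg7 and Cd4, and neighbours named for distance were chosen after their values were seen. Values of some lysosomal list members that the rule would name are not reported here. The members and lists were chosen with earlier results of these data known. Column pairs of WT and KO mice were taken from the order in the study's tables, which does not describe them as pairs; deviations of paired libraries correlated with r of -0.04 to 0.51 over the 4 populations, and 1 MEP pair was under 0.1. Deviations of libraries of the same mouse correlated with r of -0.042 to 0.554 over 12541 genes. Alternatives tried were size factors by the median of ratios, no low-count filter, a transcript length offset, DESeq2 1.42.0, column pairs or no mouse as a block, all 18 libraries in 1 fit, CPM in place of TPM, each library or mouse left out, and, added after the data were seen, coding transcripts only.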

Additional observations from a re-analysis of the deposited data

Results flagged for a closer look

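Of the 5 genes, those whose KO effect differed between populations by the interaction test are listed here, as differences of log2 fold changes (edgeR, adjusted p under 0.1). Between GMP and CMP, the effect was more positive in GMP by 2.76 for Ctsg, 1.71 for Mpo, 1.62 for Elane, 1.28 for Prtn3 and 0.78 for Ms4a3. Every KO mouse had a larger GMP to CMP ratio than every WT mouse for these genes. Between MEP and CMP, Ctsg alone was more positive in MEP, by 1.71. Between GMP and MEP, the effect was more positive in GMP by 1.14 for Prtn3, 1.05 for Ctsg, 0.92 for Mpo and 0.88 for Ms4a3, and it was the only one of these 3 contrasts in which leaving out a mouse ended calls. The 3 contrasts share libraries.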

How the results depend on the processing

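The counts of the 5 genes called were unchanged in the 3 comparisons of WT populations and in GMP against CMP effects under every alternative run. Of 290 values of single genes with a library or mouse left out, 248 kept direction and call, 18 lost the call, 13 gained it and 11 turned direction, and of 315 under the other alternatives 302, 2, 9 and 2 did. With no filter on low counts, 1 gene passed in LT-HSC, 5 in CMP, 2 in MEP against CMP effects and 5 in GMP against MEP effects. As a replicate block, the column pairs gave 5 calls in CMP, and in LT-HSC, where 0 passed, Mpo was at 3.43; the block changed no other call. With 18 libraries in 1 fit, 1 passed in MEP. Leaving out a library or mouse gave 2 to 4 genes in CMP, 4 to 5 in GMP and 0 to 2 in MEP. It gave 1 to 2 in MEP against CMP effects, and 1 to 5 in GMP against MEP effects. In LT-HSC such fits leave 1 library in a group, and only effect sizes of the 5 genes are given. With coding transcripts only, Prtn3 turned to 0.64 in LT-HSC and to -0.24 in MEP against CMP effects. Direction also turned within these ranges of leaving out libraries or mice: in LT-HSC, -0.34 to 7.33 for Mpo, -0.32 to 8.81 for Elane, -0.12 to 0.022 for Prtn3 and -0.34 to 8.0 for Ctsg, in MEP, -0.40 to 0.084 for Elane and -0.091 to 0.59 for Ms4a3, and in MEP against CMP effects, -0.18 to 0.51 for Prtn3 and -0.40 to 0.26 for Ms4a3. None of the values that turned was called in the full data. The cause was not tested.

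In genes called over all genes, LT-HSC had 18, against 286 with no filter, 204 with DESeq2, 115 with column pairs as a block and 50 to 2516 with a library left out. MEP had 4638 against 3040 without KO mouse 301, and MEP against CMP effects 2353 against 1464 without mouse 309. Of GMP against MEP effects, 2316 were more positive and 2458 more negative, and 2879 and 2020 with DESeq2. CPM in place of TPM moved the log2 ratio of KO to WT means in GMP to 0.33 for Mpo, 0.77 for Elane, 0.83 for Prtn3, 0.55 for Ctsg and 1.10 for Ms4a3, and that of Prtn3 in LT-HSC to -0.01. The lowest estimated counts were 6 (Ctsg) in library S245 and 21.1 (Ms4a3) in MEP.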
